A study of Rattus norvegicus with 58 samples.

Results

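The subunits of the oxidative phosphorylation machinery were followed as transcripts in rat liver. Members were all genes with a single symbol in the platform annotation beginning Ndufa, Ndufb, Ndufc, Ndufs, Ndufv, Uqcr, Cox4i, Cox5, Cox6, Cox7, Cox8 or Atp5, with the Ndufaf assembly factors left out, and each gene was represented by its probe set of highest mean. The rule gave 76 of 14217 named genes, of which 36 belong to complex I, 7 to complex III, 17 to complex IV and 16 to complex V by their prefix. Ndufa4 is counted with complex I by its prefix, although it is known as a subunit of complex IV, and Cox6c-ps1 is named as a pseudogene. Another 7 probe sets with such a prefix also carry a second symbol and were not used here, among them those of Uqcrb, Ndufa10, Ndufs5, Cox7a2, Atp5mc1 and Atp5mc2 and a further one of Cox5a.

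The study hybridised liver RNA of 58 male rats of 17 weeks to arrays, with 1 array per rat. Glucose-intolerant heterogeneous stock (HS) rats (23 arrays) were set against HS rats of normal glucose tolerance (23 arrays), and 6 inbred strains had 2 arrays each (WKY, M520, F344, BUF, BN and ACI). HS rats are outbred animals whose genomes mix those of inbred founder strains. All animals were kept in pairs, ate freely and were killed by decapitation after a night without food. The labels name no allele, special diet or drug in either glucose group, and intolerance is a measured property of the outbred animal. The labels do not say whether the rats of a strain came from separate litters, and p-values then measure only the spread between these arrays.

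Oxidative phosphorylation is carried out in the inner mitochondrial membrane. Complex I takes electrons from NADH, complex III passes them from ubiquinol to cytochrome c, complex IV hands them to oxygen, and the proton gradient built on the way drives ATP synthase, here called complex V. The members are all encoded in the nucleus, and their products join subunits made from mitochondrial DNA. In hepatocytes this machinery supplies the ATP for gluconeogenesis, urea synthesis and protein secretion.

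Values are log2 expression, so a difference of 1 is a 2-fold difference. Array medians lay between 5.33 and 5.39. Signal has no read depth, and precision depends on the number of arrays and on the spread and brightness of each probe set. All 7 hepatocyte markers on the array were bright, with albumin (Alb) between 14.87 and 14.97 over all rats. Array 2 of BUF stood apart from the other inbred arrays. Its score on the first principal component of the HS arrays, computed without the members and scaled to an SD of 1 over the HS rats, was -3.42, while array 1 of BUF had -0.91, array 2 of F344 had -1.76 and the other 9 inbred arrays lay between -0.97 and 0.63. Calls in BUF and several counts that rest on it are therefore given with and without that array. Counts defined on both of its arrays are given only with that array included. The same holds for the range between strain means, the unadjusted F test count and the count of members inside the range of the HS rats.

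Promoter windows running from 250 bases before to 50 bases after the start of the gene were taken from RefSeq (GRCr8) for 68 of the 76 members. They are shown for the 4 members that passed a strain test (Ndufa12, Cox7b, Uqcrfs1 and Atp5pf) and for Uqcrc2 and Atp5f1d, which ran in opposite directions among HS rats. Each is written 5′ to 3′ along the gene's own strand. Capitals mark every match, on either strand, to the letters GCATGCG (the core of the NRF1 motif), CCGGAAG (ETS), AAGATGG (YY1), AAGGTCA (ERRA), GGGCGG (SP1), CCAAT or TATAAA. The windows lie at chr7:30658066-30658365 on the plus strand for Ndufa12, chrX:75148786-75149085 on the plus strand for Cox7b, chr17:34186352-34186651 on the plus strand for Uqcrfs1, chr11:37375052-37375351 on the minus strand for Atp5pf, chr1:184598990-184599289 on the plus strand for Uqcrc2, chr7:10214301-10214600 on the minus strand for Atp5f1d.
Ndufa12: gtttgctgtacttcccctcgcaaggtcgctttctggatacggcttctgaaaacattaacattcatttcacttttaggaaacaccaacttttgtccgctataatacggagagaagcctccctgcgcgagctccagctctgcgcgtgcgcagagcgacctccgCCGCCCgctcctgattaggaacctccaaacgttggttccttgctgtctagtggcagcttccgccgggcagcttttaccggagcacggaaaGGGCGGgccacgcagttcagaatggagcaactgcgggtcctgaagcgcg
Cox7b: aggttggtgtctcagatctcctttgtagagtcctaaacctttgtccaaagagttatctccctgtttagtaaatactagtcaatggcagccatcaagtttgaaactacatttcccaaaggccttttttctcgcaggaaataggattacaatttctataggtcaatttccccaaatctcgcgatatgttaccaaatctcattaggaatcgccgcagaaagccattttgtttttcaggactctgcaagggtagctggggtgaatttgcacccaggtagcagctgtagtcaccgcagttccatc
Uqcrfs1: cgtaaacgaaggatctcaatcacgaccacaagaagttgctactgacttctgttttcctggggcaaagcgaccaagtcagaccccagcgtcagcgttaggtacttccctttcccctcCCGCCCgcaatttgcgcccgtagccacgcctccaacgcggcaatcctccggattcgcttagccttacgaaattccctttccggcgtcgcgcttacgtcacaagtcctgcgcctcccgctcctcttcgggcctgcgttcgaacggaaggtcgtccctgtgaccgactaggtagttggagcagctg
Atp5pf: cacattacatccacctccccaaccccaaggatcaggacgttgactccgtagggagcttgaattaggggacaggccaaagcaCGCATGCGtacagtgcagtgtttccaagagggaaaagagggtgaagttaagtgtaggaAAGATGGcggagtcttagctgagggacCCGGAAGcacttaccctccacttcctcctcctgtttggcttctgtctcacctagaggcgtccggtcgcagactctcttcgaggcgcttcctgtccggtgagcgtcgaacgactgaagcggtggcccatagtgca
Uqcrc2: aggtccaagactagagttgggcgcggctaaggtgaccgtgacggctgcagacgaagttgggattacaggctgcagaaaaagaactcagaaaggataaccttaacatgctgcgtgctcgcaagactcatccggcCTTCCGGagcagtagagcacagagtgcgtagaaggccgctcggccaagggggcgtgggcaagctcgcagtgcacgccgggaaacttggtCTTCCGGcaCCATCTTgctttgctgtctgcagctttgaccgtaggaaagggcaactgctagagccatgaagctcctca
Atp5f1d: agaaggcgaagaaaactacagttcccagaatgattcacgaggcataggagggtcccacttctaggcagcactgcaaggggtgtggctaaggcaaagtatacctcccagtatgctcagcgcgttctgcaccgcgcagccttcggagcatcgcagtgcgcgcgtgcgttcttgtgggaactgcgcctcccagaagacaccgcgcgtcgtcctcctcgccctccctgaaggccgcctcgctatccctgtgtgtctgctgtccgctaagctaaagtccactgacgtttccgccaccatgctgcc

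Matches to YY1, ETS, ERRA and NRF1 letters were found in a larger share of members than of other array genes. The YY1 letters stood in the windows of 18 of 68 members (26.5%), against 7.73% of 11632 other genes on the array and 7.30% of all 27457 windows of the table. The ETS letters were also found in 18 members (26.5%), against 15% of the other array genes and 9.22% of all windows. NRF1, the ETS factor GABPA, YY1 and the estrogen-related receptor ERRA are known regulators of nuclear genes for respiration. ERRA letters stood in 10 members (14.7%), against 3.08% and 4.37%. The NRF1 core was found in 8 members (11.8%), against 5.40% and 3.54%, and 4 of these 8 belong to complex V. The SP1 letters showed the opposite order for array genes, with 42.6% of members against 57.6% of the other array genes and 34.9% of all windows. CCAAT was found in 35.3% of members, against 37.3% and 37.7%, and TATAAA in 11.8%, against 8.43% and 14.3%. Of the 6 windows printed, that of Atp5pf holds NRF1, YY1 and ETS matches, that of Uqcrc2 holds 2 ETS matches and 1 YY1 match, those of Ndufa12 and Uqcrfs1 hold SP1 letters only, and those of Cox7b and Atp5f1d hold none of these letters. The NRF1 core overlaps its own reverse complement in Atp5pf and is counted once. The shares are descriptions of these exact letters in these windows, given without a test. Other forms of the motifs were not searched, so a window without a match may still hold another form.

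Most subunits were strongly expressed in liver, and the exceptions were isoforms known from other tissues. Of the 76 members, 69 had a mean above the median of the array medians (5.37). The 7 below it were Cox6a2, Cox7a1 and Cox8b, known as heart and muscle isoforms, Cox4i2, an isoform of lung and of low oxygen, Cox6b2 and Cox7b2, known from testis, and Ndufa4l2, a hypoxia-induced relative of Ndufa4. Their signal is dim, and differences there say little about the transcript. Cox8b averaged 3.41 ± 0.15 among intolerant and 3.50 ± 0.17 among normal HS rats (SD, 23 arrays each), and Cox4i2 averaged 3.62 ± 0.14 and 3.65 ± 0.15. The isoforms known from liver lay far above the array medians in the same rats. Cox4i1 averaged 12.25 ± 0.08 among intolerant and 12.29 ± 0.08 among normal rats, Cox6a1 11.61 ± 0.08 and 11.62 ± 0.08, and Cox8a 12.34 ± 0.09 and 12.28 ± 0.11. For Cox6b1 the means were 11.44 ± 0.07 and 11.44 ± 0.07. Cox7a2l, a factor of respiratory supercomplexes, averaged 10.13 ± 0.09 and 10.14 ± 0.07. The c-ring subunit Atp5mc3 averaged 12.86 ± 0.08 and 12.83 ± 0.06.

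The first comparison asked whether subunit transcripts differ between glucose-intolerant and normal HS rats. No member passed the test, and the differences were small. limma called 0 of the 76 members at an adjusted p under 0.05, beside 0.0% of the 31042 probe sets tested. At an unadjusted p under 0.05 there were 6 members, which is 7.89% of members, beside 8.0% of all probe sets. Of these, 4 were higher in intolerant rats (beside 3.17% of probe sets) and 2 lower (beside 4.83%). The mean was higher in intolerant rats for 53 of 76 members (69.7%), beside 42.5% of all named genes, and the median difference was 0.03, beside -0.01 over all named genes. That balance was known from earlier results of these data and is no independent evidence of a direction. In whole liver, fewer cells of a type and less RNA per cell cannot be told apart.

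In complex I the intolerant mean was the higher one for 25 of 36 members, and the median difference was 0.02. The smallest p belonged to Ndufa8, an accessory subunit. Ndufa8 ran from 10.37 over a median of 10.57 to 10.92 in intolerant rats, against 10.24, 10.46 and 10.88 in normal rats. The groups overlapped over nearly their whole range. The difference of 0.13 ± 0.04 (SE) had p = 0.00369 and an adjusted p = 0.422 in limma. Ndufa11, an accessory subunit of the membrane arm, ran from 11.08 over 11.23 to 11.37 in intolerant rats, against 10.90, 11.16 and 11.34 in normal rats, a difference of 0.08 (adjusted p = 0.502 in limma). Ndufb6, another membrane-arm subunit, had a mean of 10.66 ± 0.11 (SD) among intolerant animals and of 10.58 ± 0.11 among normal ones (23 arrays each, limma's adjusted p = 0.563).

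In complex III it was the higher one for 6 of 7 members (median difference 0.03). Uqcrh, the hinge protein, had a mean of 11.21 ± 0.06 (SD) among intolerant animals and of 11.17 ± 0.10 among normal ones (limma's adjusted p = 0.725). The core protein Uqcrc2 ran from 10.29 over 11.03 to 11.36 in intolerant rats, against 10.12, 10.96 and 11.27 in normal rats. Uqcrfs1, the Rieske iron-sulfur protein, ran from 11.17 over 11.69 to 11.89, against 11.07, 11.59 and 11.89. Both spread widely within each group, and their differences of 0.10 ± 0.08 and 0.08 ± 0.06 (SE) are close to their errors.

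In complex IV, 8 of 17 members had the higher mean in intolerant rats, and the median difference was -0.01. Its members of smallest p were Cox8b, which is dim, with a difference of -0.09 ± 0.05, Cox8a with 0.05 ± 0.03 and Cox7c with -0.04 ± 0.02 (SE), with adjusted p from 0.650 to 0.680 in limma. Both Cox8a and Cox7c are small structural subunits of the complex.

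In complex V, 14 of 16 members had the higher mean among intolerant rats (median difference 0.04). The exception with the smallest p was Atp5if1, the protein that inhibits the hydrolysis of ATP by the synthase. Atp5if1 ran from 7.59 over 8.01 to 8.32 in intolerant rats, against 7.83, 8.16 and 8.36 in normal rats. Its values overlapped, with the lower end of the range reached in intolerant rats alone. The difference of -0.14 ± 0.05 (SE) had p = 0.00499 and an adjusted p = 0.445 in limma. Its 2 dimmer probe sets gave differences of -0.19 and -0.05. Atp5mg and Atp5me, small subunits of the membrane part of the synthase, differed by 0.05 ± 0.03 each (SE; adjusted p = 0.669 and 0.672 in limma). The dim second probe set of Atp5me gave -0.08, so the sign of that gene depends on the probe set.

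**Figure D1:**
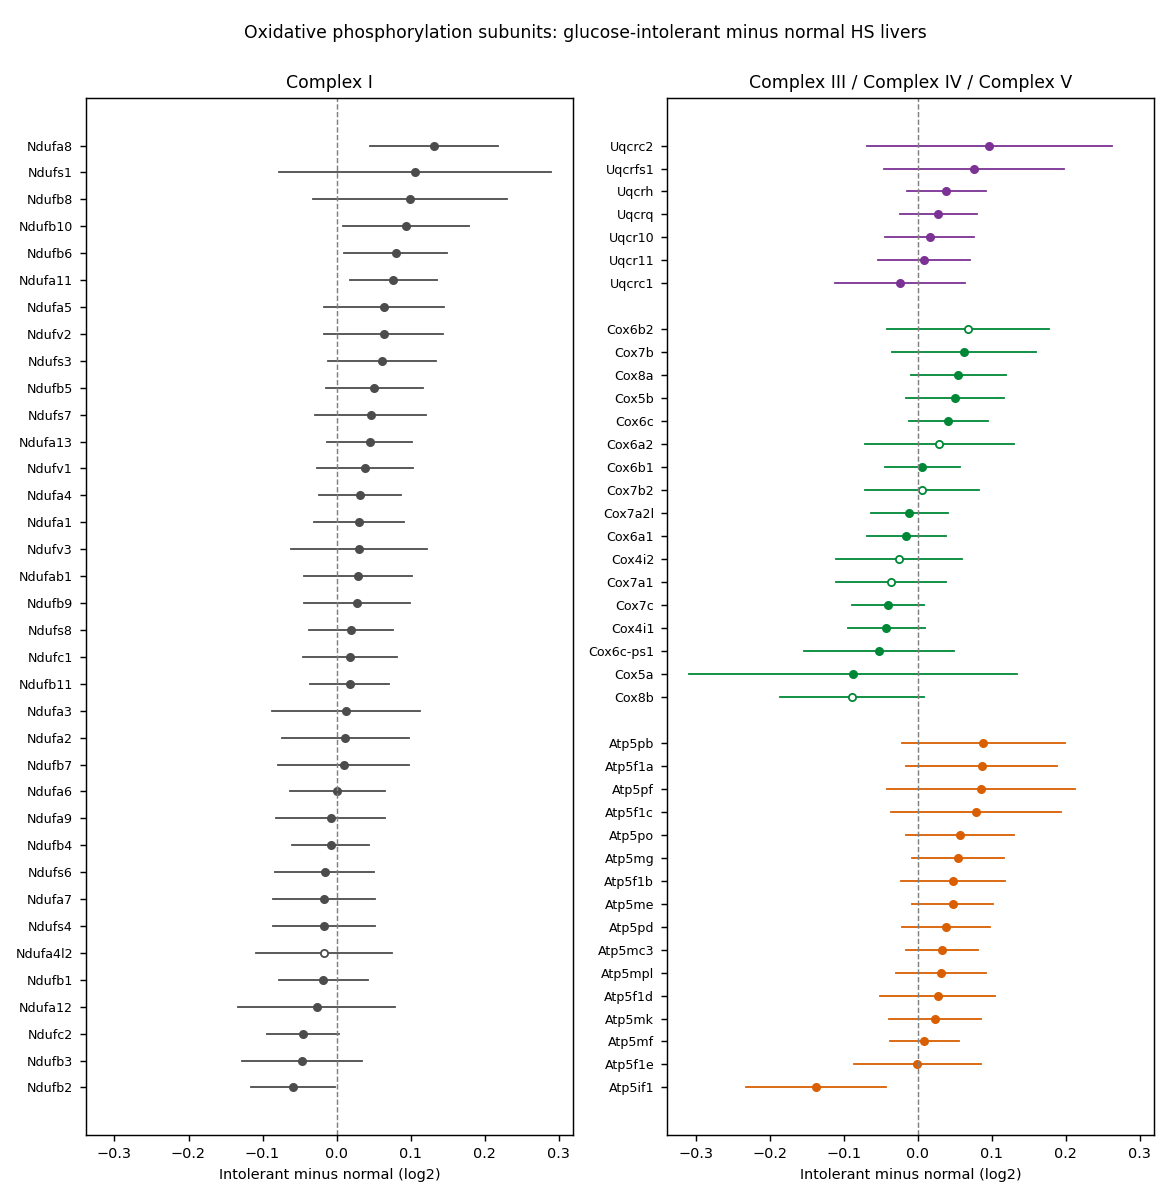
Difference in mean log2 expression, intolerant minus normal HS rats (23 rats each), for the 76 members, grouped by complex and sorted within each. Points are differences, bars are 95% confidence intervals from limma and open points are the 7 dim members. All points lie between -0.14 and 0.13, and the widest bar belongs to Cox5a.

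The intervals bound how large a difference these groups could hold. The 95% interval lay inside ±0.25 for 73 of 76 members (96.1%), beside 86.0% of all named genes. The 3 others were members of wide spread, Ndufs1, Uqcrc2 and Cox5a. The score on the first component averaged 0.17 ± 1.01 (SD) among intolerant animals and -0.17 ± 0.98 among normal ones (two-sided permutation test with 100000 resamples, p = 0.247). With that score as a covariate, an alternative added after the data were seen, the call count stayed at 0. Markers of some other liver cells moved slightly with the groups as well. Of all named genes, 42.5% had the higher intolerant mean. It was higher for 1 of 13 macrophage markers (median -0.09), 0 of 14 endothelial markers (-0.07) and 2 of 12 stellate markers (-0.05). The same held for 3 of 6 bile duct, 3 of 9 lymphocyte and 1 of 3 red blood cell markers, and 0 were called in any list. The mean level of the macrophage markers ran from 8.03 to 9.19 in intolerant rats, against 7.96 to 9.40 in normal rats, and that of the endothelial markers from 7.11 to 8.01, against 7.41 to 7.98. Their part in the balance of the subunits was not tested.

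At the probe set used for each gene, subunit transcripts varied little from rat to rat. The median SD over the 46 HS rats was 0.12 for the 76 members, beside 0.17 for all named genes. Among the brighter genes it was 0.11 for 69 members, beside 0.18 for all 9362 brighter named genes. That background was not matched to the level of the members. In the 7 members with several probe sets, the dimmer ones had the larger SD, as in Uqcrc2 with 1.06 against 0.29. The most even members were Ndufc2 in complex I (SD 0.07), Uqcrq in complex III (0.08), Cox7c in complex IV (0.07) and Atp5mf in complex V (0.07). The most variable were Ndufs1 (0.32), the large iron-sulfur subunit of complex I, Uqcrc2 (0.29), Cox5a (0.39) and Atp5pf (0.22), the coupling factor 6 of the peripheral stalk. Cox5a ran from 6.75 to 8.31 and Ndufs1 from 9.03 to 10.43 over the HS rats.

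The second comparison asked how the members differ among inbred strains. Here too, at the probe sets used, they varied less than most genes. The range between the highest and the lowest strain mean had a median of 0.33 over the members, beside 0.44 over all named genes, and was under 0.5 for 65 of 76 members (85.5%), beside 59.3%. The moderated F test of limma called 1 member, Ndufa12, beside 11.9% of all probe sets. At an unadjusted p under 0.05 there were 12 members (15.8%), beside 29.4% of probe sets. Set against the HS rats, and with both arrays of BUF in its mean, members more often had a strain mean outside than probe sets as a whole. F344 went the other way, and WKY was close to the share of all probe sets. These shares include dim probe sets, and none was computed over named or brighter genes. For 46 of the 76 members (60.5%), beside 78.6% of all probe sets, all 6 strain means lay inside the range of the 46 HS rats. The mean fell outside it for 13 members in BUF (17.1%, beside 7.37%), 10 in M520 (13.2%, beside 5.61%), 5 in BN (6.58%, beside 4.51%), 4 in ACI (5.26%, beside 1.97%), 4 in WKY (5.26%, beside 4.89%) and 0 in F344 (beside 2.43%). The BUF count rested on array 2: array 1 alone lay outside the range for 2 members (2.63%, beside 4.03%), which reverses the order in BUF. The share over all 6 strains was not computed without array 2.

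Each strain was then set against the mean of the other 5. limma called 3 members in BUF (beside 5.76% of probe sets), 1 of them higher (beside 2.49%) and 2 lower (beside 3.27%), 1 higher in M520 (beside 4.65% in either direction and 1.89% higher) and 0 in ACI, BN, F344 and WKY (beside 2.42%, 4.68%, 1.61% and 4.74%). At an unadjusted p under 0.05 there were 20 members in BUF (26.3%, beside 23.0% of probe sets), 12 in M520 (15.8%, beside 19.3%), 7 in ACI (9.21%, beside 15.6%), 4 in BN (5.26%, beside 16.7%), 4 in F344 (5.26%, beside 11.3%) and 2 in WKY (2.63%, beside 18.1%). The share was above that of all probe sets in BUF and below it in the other 5 strains. The excess in BUF depended on the background. Set against all named genes, the BUF share was 26.32% of members, beside 26.44%. Among brighter genes it was 28.99% of the 69 members, beside 34.34% of named genes. In the other 5 strains the share was below that of named genes as well. Without array 2 of BUF, the BUF share was also below that of all probe sets.

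Ndufa12, an accessory subunit of the matrix arm of complex I, was higher in BUF. Its values were 10.88 and 10.79 in BUF, against 10.41 and 10.24 in ACI, 10.10 and 10.09 in BN, 10.31 and 10.25 in F344, 10.31 and 10.36 in M520, and 10.37 and 10.42 in WKY. Both BUF arrays lay above all 10 other inbred arrays, and both BN arrays lay below them. BUF exceeded the other strains by 0.55 ± 0.09 (SE; adjusted p = 0.0066 in limma), and the F test over strains gave an adjusted p = 0.018. The F test call was lost under 5 of 24 alternatives, which were leaving out either array of BN, either array of BUF, or arrays 2 of BUF and F344 together. Without array 2 of BUF the difference was 0.59 with an adjusted p = 0.0645, and over all alternatives it ran from 0.50 to 0.63 with adjusted p from 0.00381 to 0.0893 in limma. That call was lost under both alternatives without array 2 of BUF and kept under the other 22. Among HS rats Ndufa12 ran from 10.17 to 10.95, and 3 of 46 rats reached the lower of the BUF arrays. Its correlation with the first component was -0.17, and its SD with that component removed was 0.18, the fourth highest of the 69 brighter members.

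Atp5pf and Uqcrfs1 were lower in BUF, mostly on array 2. Atp5pf had 10.43 and 9.73 in BUF, against 10.87 and 10.68 in ACI, 10.68 and 10.67 in BN, 10.79 and 10.46 in F344, 11.19 and 11.14 in M520, and 10.65 and 10.83 in WKY. Uqcrfs1 had 11.24 and 10.78 in BUF, against 11.76 and 11.64 in ACI, 11.25 and 11.43 in BN, 11.82 and 11.33 in F344, 11.77 and 11.86 in M520, and 11.30 and 11.46 in WKY. Both BUF arrays were below the other 10 in each gene, but array 1 lay close to its neighbours, which were array 2 of F344 for Atp5pf and array 1 of BN for Uqcrfs1. The difference from the other strains was -0.72 ± 0.16 for Atp5pf (SE; adjusted p = 0.0259 in limma) and -0.55 ± 0.14 for Uqcrfs1 (adjusted p = 0.048). Without array 2 of BUF the differences were -0.36 and -0.33, with adjusted p = 0.494 and 0.650, and the adjusted p ran from 0.00256 to 0.543 and from 0.0162 to 0.774 over all alternatives. The call of Atp5pf was lost under 5 alternatives and kept under 19, and that of Uqcrfs1 was lost under 15 and kept under 9. Without array 1 of BUF, 15 members were called in BUF (beside 13.7% of probe sets), and without array 2 there were 0 (beside 0.738%). With the first component as a covariate, added after the data were seen, the differences were -0.27 and -0.16 and neither gene was called. Other members were also lower on that array, among them Ndufs1 with 9.73 and 8.60 and Uqcrc2 with 10.52 and 9.55 on arrays 1 and 2.

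Cox7b, a small subunit of complex IV, was higher in M520. It had 12.89 and 12.80 in M520, against 12.53 and 12.31 in ACI, 12.26 and 12.27 in BN, 12.35 and 11.84 in BUF, 12.48 and 12.20 in F344, and 12.17 and 12.38 in WKY. Both M520 arrays lay above the other 10, and 1 of 46 HS rats reached the lower of them. The difference was 0.57 ± 0.14 (SE; adjusted p = 0.0372 in limma). It ran from 0.39 to 0.62 over the alternatives, with adjusted p from 0.0047 to 0.29 in limma, and the smallest difference was that with the first component as a covariate. The call was kept under 15 alternatives and lost under 9: that covariate, and leaving out either array of ACI, BN or M520, array 2 of F344 or array 1 of WKY. Complex V members of M520 also lay mostly above the other strains, with 14 of 16 higher (87.5%, beside 44.7% of all named genes) and a median difference of 0.17, but 0 called. This was shared by F344, with 13 of 16 higher (81.3%, beside 48.8%), a median difference of 0.09 and 0 called. Atp5pf was among those of M520, with 0.59 (adjusted p = 0.0586 in limma). It was called in M520 with 1 probe set per gene, quantile normalisation, trended and robust variance, array weights and all 58 arrays in 1 fit. Among brighter probe sets and with the mean of probe sets it was not called. Ndufb1 of complex I, not called in the main fit, was called in M520 under all of these alternatives.

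**Figure D2:**
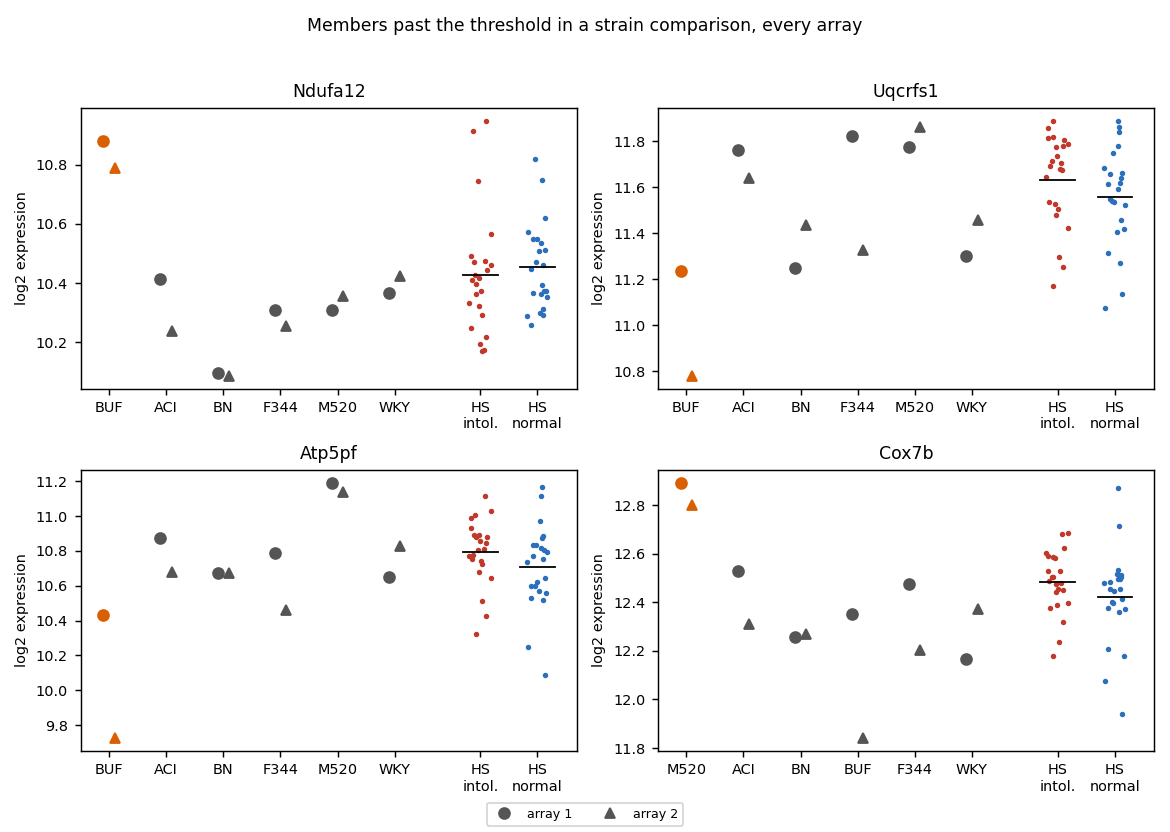
Log2 expression of the 4 members called in a strain comparison on every array. The strain that differed is at the left in orange, the other strains follow in grey (circles array 1, triangles array 2), and the HS rats are dots at the right with a bar at each group's mean. Array 2 of BUF gives the lowest point for Uqcrfs1, Atp5pf and Cox7b and an upper point for Ndufa12.

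The strains differed little over the members as a whole. The median difference from the other 5 strains was 0.08 in F344 (54 of 76 members higher), 0.05 in M520 (49 higher), 0.01 in BUF (41 higher), -0.05 in WKY (19 higher), -0.05 in ACI (30 higher) and -0.05 in BN (21 higher). Over all named genes the same medians, in that order, were -0.0044, -0.03, 0.03, 0.01, -0.02 and 0.01. The 2 arrays of a strain could differ by more than this. In ACI, array 2 was lower than array 1 for 70 of 76 members, with a median gap of -0.12, and without array 2 the ACI median became 0.02. In F344 the median was 0.02 without array 1. BUF held the highest mean for 20 members and the lowest for 19, and M520 the highest for 27. With array 1 alone standing for BUF, it was highest for 7 and lowest for 13, and its median difference stayed at 0.01.

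Members with both arrays of a strain beyond all 10 others were about as frequent as such probe sets in 4 strains and less so in BN and WKY. There were 7 in ACI (9.21%, beside 7.09% of all probe sets), 6 in BUF (7.89%, beside 6.89%), 3 in F344 (3.95%, beside 3.39%), 9 in M520 (11.8%, beside 9.26%), 3 in BN (3.95%, beside 6.98%) and 2 in WKY (2.63%, beside 7.41%). In M520 these were Ndufa5, Ndufb1, Ndufb4, Ndufs1, Uqcrc1, Cox7b, Atp5me, Atp5mk and Atp5pf. The dim isoform Cox6b2 had the smallest F test p of complex IV, with 4.19 and 3.73 in WKY and 3.19 and 3.37 in F344 as its extremes (adjusted p = 0.0579 in limma). Markers of other liver cells also differed between strains. The share of all probe sets called was 5.76% in BUF, 4.74% in WKY, 4.68% in BN and 4.65% in M520. Of 13 macrophage markers, 5 were called lower in M520, 3 lower and 1 higher in BUF, 2 higher in BN and 1 higher in WKY. Of 14 endothelial markers, 6 were called higher in BN, 2 lower in M520, and 3 lower and 1 higher in BUF. Of 12 stellate markers, 3 were called lower in BUF, 2 higher in BN, 2 higher in WKY and 1 lower in M520. The 3 in BUF (Rgs5, Col3a1 and Lrat) differed by -1.48, -1.22 and -0.96, and by -1.34, -0.67 and -0.44 without array 2. Red blood cell, bile duct and lymphocyte markers had at most 1 call in any strain. Without array 2 of BUF, 1 macrophage marker was called higher and 1 endothelial marker lower in BUF. Their part in the subunit differences was not tested.

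**Figure D3:**
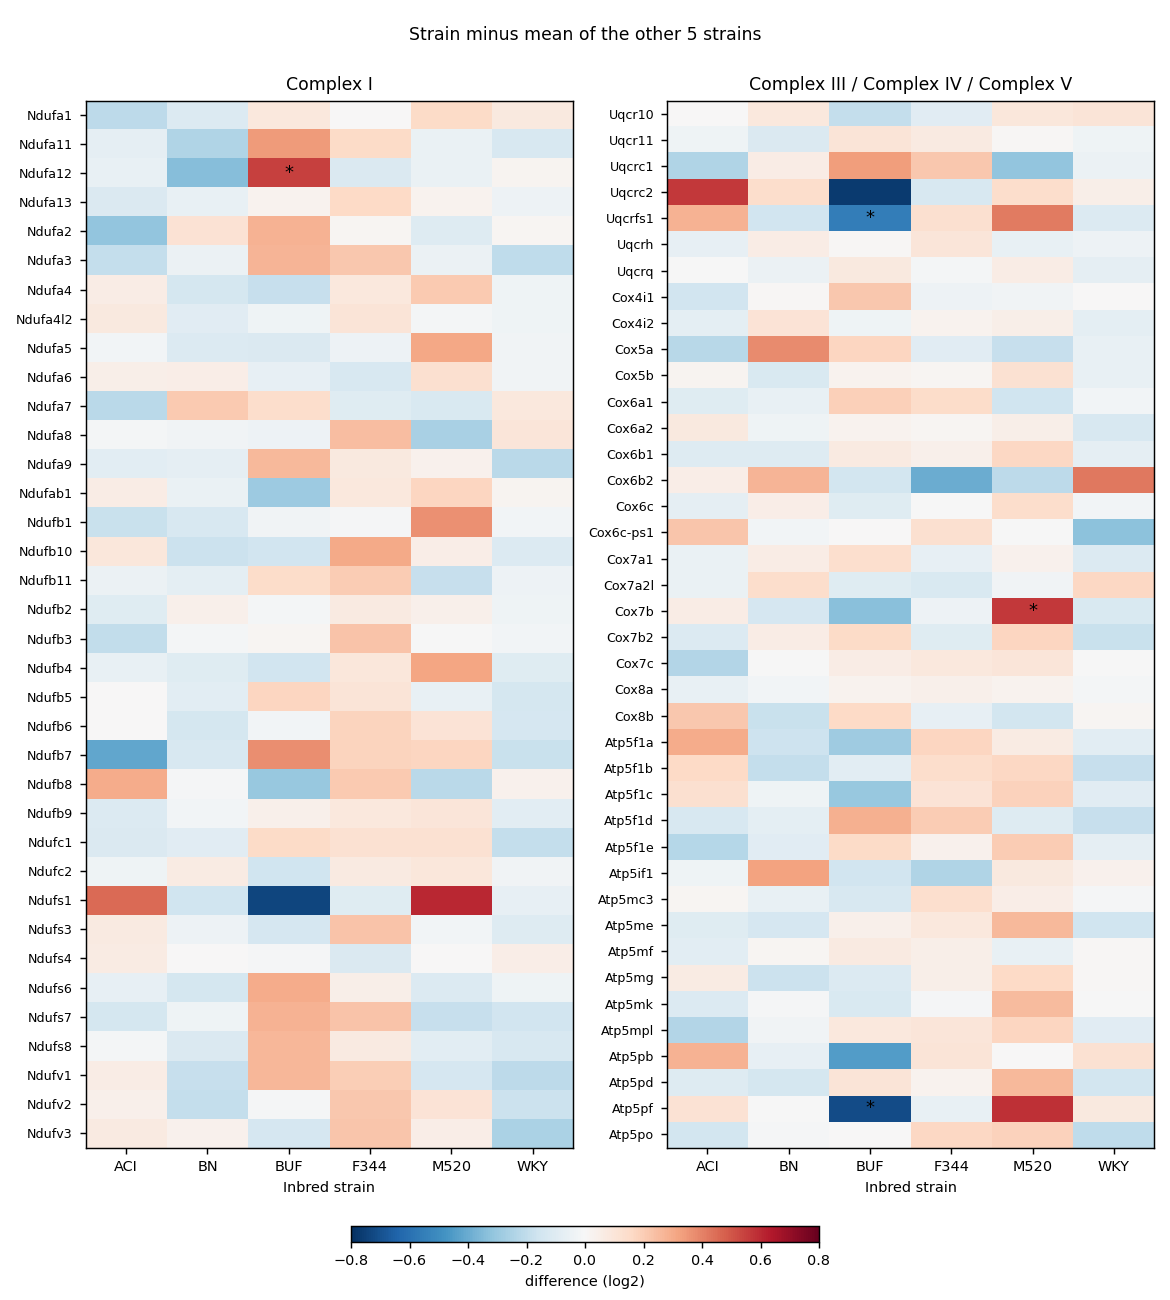
Difference of each strain from the mean of the other 5 (log2, colour) for the 76 members, with the strains as columns and stars at an adjusted p under 0.05 in limma. The 4 stars are Ndufa12, Uqcrfs1 and Atp5pf in BUF and Cox7b in M520. Most cells are pale, and the strong ones gather in Ndufs1, Uqcrc2, Uqcrfs1 and Atp5pf.

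Across the 46 HS rats the members varied together, within complexes and across them. These correlations are descriptions, since all pairs share the same arrays and their scaling. The 2346 pairs of the 69 brighter members had a median r of 0.26, and 22.1% had an r over 0.5, beside a median of 0.02 and 3.41% for pairs of other brighter genes. Pairs of the same complex had a median r of 0.28 and pairs of different complexes 0.25. Within complexes the median was 0.27 in I, 0.32 in III, 0.11 in IV and 0.37 in V. With the first component removed, the median over the member pairs was 0.36 and 91.5% were above 0, beside 0.01 and 52.9% for pairs of other genes.

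**Figure D4:**
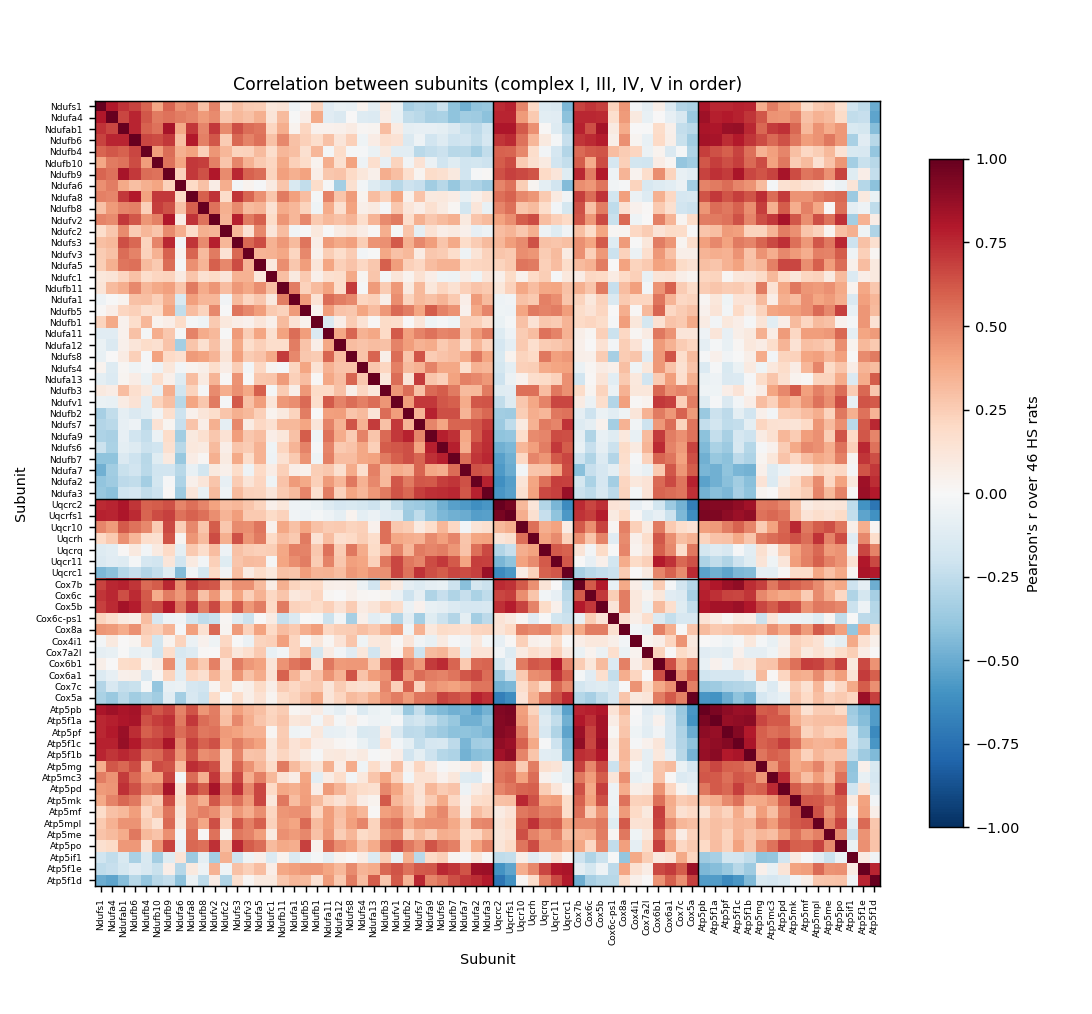
Pearson's r over the 46 HS rats for each pair of the 69 brighter members, ordered by complex I, III, IV and V (black lines) and within a complex by correlation with the first component. Red blocks cross the lines between complexes, and blue marks pairs that ran against each other, down to -0.72 for Uqcrc2 and Atp5f1d.

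Members of a single complex ran in opposite directions along the main axis of variation. The first component took 17.2% of the variance of 9293 other named genes. Its sign is arbitrary and was set so that Uqcrc2 rises with it. The 2 arrays of BUF lay far apart on it, at -0.91 and -3.42. What the component reflects, RNA or array quality included, was not tested. Of the 69 brighter members, 19 had an r over 0.5 with it (27.5%, beside 11.6% of the other genes) and 10 an r under -0.5 (14.5%, beside 21.4%). In complex III, Uqcrc2 had an r of 0.97 and a rho of 0.94, and r was 0.96 without the 2 rats farthest from the median score. Uqcrfs1 had an r of 0.92, while the other core protein, Uqcrc1, had -0.74. In the ATP synthase, the catalytic subunits Atp5f1a and Atp5f1b had an r of 0.90 and 0.80, the shaft subunit Atp5f1c 0.84, and the peripheral stalk subunits Atp5pb and Atp5pf 0.91 and 0.88. Atp5f1d and Atp5f1e, the delta and epsilon subunits of the same rotor, had -0.78 and -0.67. Atp5f1d had a rho of -0.62, and its r was -0.72 without the 2 farthest rats. Uqcrc2 and Atp5f1d had the highest and the lowest r of the 69 relations computed. Their two-sided permutation p was 1e-05 for r and for rho, the smallest that 100000 resamples can give. The score comes from the same arrays and many other genes ran with or against it, so these p-values do not set the 2 genes apart from others. In complex I the ends were Ndufs1 with 0.74 and Ndufa3 with -0.67, and in complex IV Cox7b with 0.72 and Cox5a with -0.75.

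The signs were much the same in both glucose groups. Uqcrc2 had an r of 0.98 within intolerant and 0.96 within normal rats, and Atp5f1d -0.82 in each. Of the 69 members, 59 had the same sign in both groups and 66 kept their sign without the 2 farthest rats. The second, dimmer probe set of Uqcrc2 ran with the first over the HS rats (r of 0.95, rho of 0.94, two-sided permutation p of 1e-05 each, and r of 0.94 without the 2 farthest rats), and its SD was 1.06, against 0.29 for the first. Between single members, r was 0.95 between Uqcrc2 and Uqcrfs1, 0.90 between Atp5f1a and Atp5f1b, and 0.76 between Atp5f1d and Atp5f1e, but -0.56 between Atp5f1a and Atp5f1d. Of the 12 inbred arrays, array 2 of BUF had the lowest Uqcrc2 and the highest Atp5f1d.

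**Figure D5:**
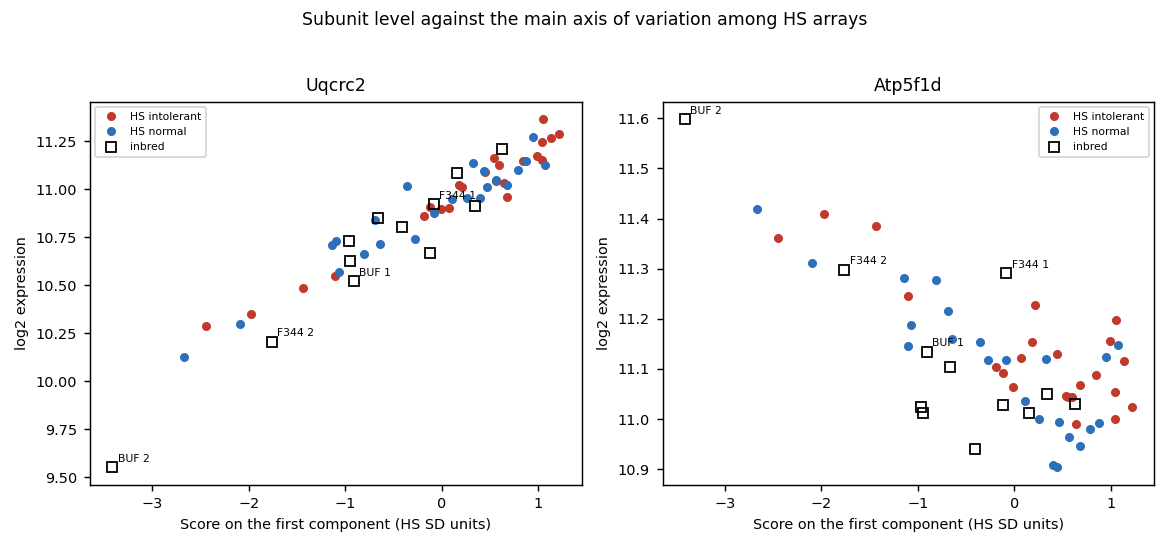
Log2 expression of Uqcrc2 and Atp5f1d (vertical) against the score on the first component (horizontal, in SD of the HS rats), for intolerant (red) and normal (blue) HS rats and the 12 inbred arrays (squares). Uqcrc2 climbs with the score and Atp5f1d declines, both glucose groups spread along the whole axis, and array 2 of BUF lies at the far left at -3.42.

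Other mitochondrial genes were examined beside the subunits. The list of complex II and cytochrome c genes had 5 members on the array, all with the higher mean in intolerant rats (median 0.08), and 0 called. The 2 of smallest p were Sdhd and Sdhc, the membrane anchors of succinate dehydrogenase, with differences of 0.13 ± 0.05 and 0.08 ± 0.04 (SE; adjusted p = 0.562 and 0.673 in limma). Assembly factors had 32 of 48 higher (median 0.03), genes of the tricarboxylic acid cycle 9 of 12 (0.06), regulators of mitochondrial biogenesis 15 of 23 (0.05) and mitochondrial ribosomal proteins 46 of 73 (0.01), with 0 called in each. Carriers and uncoupling proteins had 10 of 15 higher (0.02), mitochondrial antioxidant enzymes 5 of 8 (0.04) and other entry points of electrons 6 of 8 (0.04), again with 0 called. Cytosolic ribosomal proteins had 12 of 48 higher (median -0.03).

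Some genes of these lists passed the strain tests. The share of all probe sets called was 5.76% in BUF, 4.74% in WKY, 4.68% in BN, 4.65% in M520, 2.42% in ACI and 1.61% in F344. Of 73 mitochondrial ribosomal proteins, 10 were called in M520 (2 higher and 8 lower), 5 in BUF (3 higher and 2 lower), 4 in BN (2 higher and 2 lower) and 1 each in ACI, F344 and WKY. Of 48 assembly factors, 5 were called in BUF (2 higher and 3 lower), 2 in ACI, 2 in F344, 1 in BN, 1 in M520 and 0 in WKY. Of 23 regulators, 5 were called in BN, 3 in WKY, 2 in BUF, 1 in ACI, 1 in M520 and 0 in F344. Of 12 genes of the tricarboxylic acid cycle, 1 was called higher in ACI, 2 lower in BN and 1 lower in BUF. Without array 2 of BUF, none of these 4 lists had a gene called in BUF (0 of 73, 48, 23 and 12, beside 0.738% of probe sets). In BUF, Ppargc1a, the coactivator of mitochondrial biogenesis, was lower, with a difference of -1.0 ± 0.20 (SE; adjusted p = 0.0176 in limma), although its signal is dim, and -0.71 without array 2 (adjusted p = 0.382). Cox15, which makes the heme A of complex IV, was lower in BUF, with -0.85 ± 0.14 (adjusted p = 0.00668 in limma), and -0.52 without array 2 (adjusted p = 0.126). Acad9, a complex I assembly factor, was called in 4 strains, with differences of -0.95 in BN, -0.70 in ACI, 0.68 in BUF and 0.64 in F344, and the BUF difference was 0.74 without array 2 (adjusted p = 0.0877 in limma). Of the 8 antioxidant enzymes, Prdx5 was called lower and Txnrd2 higher in BUF, with differences of -0.625 and 0.62 (adjusted p = 0.00869 and 0.028 in limma). Without array 2 of BUF the difference of Prdx5 was larger, at -0.77, and that of Txnrd2 was smaller, at 0.31. In WKY, Tfb2m, a factor of mitochondrial transcription, was lower, with a difference of -0.86, and so was Polg2, the accessory subunit of the mitochondrial DNA polymerase, with -1.60. None of the 76 subunits was called in WKY.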

How the data were processed

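Liver RNA of 58 rats was amplified by an Affymetrix two-cycle kit, biotin-labelled and hybridised, per the labels' protocols. The authors' deposited table holds log2 expression for 31042 probe sets, and Partek is the tool in the submitters' processing notes. The methods of background correction, summarisation and normalisation were not given in the sources used here. Array medians lie within 0.1 of each other on this scale, which points to a shared scaling before deposit.

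HS groups were taken from the titles and the design text, because 1 of the descriptions is ambiguous about tolerance. Members and gene lists were chosen with earlier results of these data known. The probe set of highest mean stood for each gene. Tests used limma 3.58.1 in R 4.3.3 (lmFit and eBayes) on all probe sets, with Benjamini-Hochberg adjustment over the 31042. A call is an adjusted p under 0.05. The 46 HS arrays served for glucose (44 residual degrees of freedom) and the 12 inbred arrays for strains (6 residual degrees of freedom). The fits were tested on simulated data. Named members were those called, the 3 of smallest p for glucose and the most and least variable in each complex, the smallest F test p in each complex, and the tissue isoforms. Axis members, pairs of members and genes of other lists beyond this rule were picked after their values were seen. The first principal component was taken over 9293 other named genes brighter than the median of the array medians, and inbred arrays were projected on it. Promoter windows and coordinates are those of RefSeq for GRCr8, 1 window a gene. Windows of Atp5pd, Cox4i2, Cox6a1, Cox6c, Cox6c-ps1, Ndufa8, Ndufb9 and Uqcr11 were not used here. Replicate numbers of the strains were checked for pairing: over 15 pairs of strains the correlation of deviations ran from -0.15 to 0.42 and exceeded 0.1 in 3, so the number was taken as a name. Alternatives covered 1 probe set per gene, brighter probe sets only, other probe set choices, quantile normalisation, median centring, trended and robust variance, array weights, all 58 arrays in 1 fit, a replicate block, single arrays left out and, added after seeing the data, the first component as a covariate and arrays 2 of BUF and F344 left out together.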

Additional observations from a re-analysis of the deposited data

How the results depend on the processing

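The glucose comparison called 0 members under every alternative run, with 45 to 57 members higher in intolerant rats and a median difference of 0.02 to 0.04. Atp5me reversed its sign there, with -0.018 for the mean of its probe sets and -0.083 for the probe set of largest SD.

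The strain counts moved more. The F test, which called 1 member, called 2 among brighter probe sets, 3 with 1 probe set per gene, 2 after quantile normalisation, 3 with trended and robust variance, 5 with array weights, 14 with all 58 arrays, 3 with the mean of probe sets, 2 with the first component as covariate and 0 to 9 when single arrays were left out. BUF, with 3 called, had 1 with array weights, 10 with all 58 arrays, 1 with the first component as covariate, 0 without arrays 2 of BUF and F344, and 0 to 15 when single arrays were left out, the extremes being array 2 and array 1 of BUF. M520, with 1 called, had 2 among brighter probe sets, 3 each with 1 probe set per gene, quantile normalisation, trended variance, array weights and without arrays 2 of BUF and F344, 6 with all 58 arrays, 2 with the mean of probe sets, 0 with the first component and 0 to 6 when single arrays were left out. ACI had 2 with array weights, 1 with all 58 arrays and 0 to 3 when single arrays were left out. BN had 1 among brighter probe sets, with 1 probe set per gene, with array weights, with the mean of probe sets and with the first component. F344 had 0 to 1 and WKY 0 to 2 when single arrays were left out. The median difference ran from -0.0948 to 0.0178 in ACI and from 0.023 to 0.112 in F344 when single arrays were left out. A strain left with 1 array was assumed to vary like the other strains. With the replicate number as a block, the F test called 2, BUF 2 and M520 2 members, and no other count changed. The share of all tested features called moved with the setting too, so these counts are to be read beside it. Over the alternatives it ran from 6.86% to 19.6% for the F test, 0.735% to 13.7% in BUF, 0.741% to 8.68% in M520, 0.477% to 8.61% in ACI, 1.6% to 7.56% in BN, 0.451% to 2.53% in F344 and 1.57% to 7.85% in WKY. With array weights it was 8.61% in ACI and 1.73% in BUF, beside 2.42% and 5.76% without them, and with all 58 arrays it was 0.851% in ACI, 5.72% in BUF, 4.07% in M520 and 14.6% for the F test. The causes were not tested.

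With 2 arrays a strain and 6 residual degrees of freedom, a miss in a strain test bounds little. No read depth, scan date, cage or litter was used here, dim probe sets bound nothing, and the 7 probe sets with several symbols are outside these results.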
